A study of Mus musculus with 6 samples.

Results

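The netrin system was described here through 9 genes, which are the secreted ligands Ntn1 and Ntn4, the secreted netrin antagonist Draxin, and the receptors Dcc, Neo1, Unc5a, Unc5b, Unc5c and Unc5d. They were found by gene symbol, and all 9 were present among the 43346 Ensembl genes of each table. RNA-seq was done on cultured mouse retinal ganglion cells (RGCs), the neurons whose axons form the optic nerve, which had been purified by immunopanning on CD90.1 (Thy1) and transduced with an adeno-associated virus (AAV2). The control virus carried EGFP alone, the Sox11 virus carried wild-type Sox11 with IRES-EGFP, and the Sox11K91A virus carried Sox11 with lysine 91 changed to alanine, the site of SUMO attachment that the study addressed, with IRES-EGFP. The labels name these groups CONTROL, SOX11_WT and SOX11_MUTANT, and each had 2 replicates. Control cells were thus also transduced. Below, transduced libraries or groups are those with the Sox11 or the Sox11K91A virus, and both viruses means these 2. No other treatment or genotype is given, and all 3 groups grew in medium with forskolin, BDNF and CNTF. The protocol for the RNA libraries names E18 RGCs, whereas the general culture protocol names P2 pups, so the age of the animals is uncertain. Virus was added 4 h after plating at 250000 cells per well, and RNA was taken 72 h after plating. The labels do not say whether replicates came from separate animals or cultures, so that p-values measure the spread between these libraries, which may be technical.

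Netrins are laminin-related secreted proteins that steer growing axons. Dcc mediates attraction to netrin-1, Unc5 receptors mediate repulsion alone or together with Dcc, and neogenin (Neo1) is a relative of Dcc that binds both netrins and repulsive guidance molecules. Draxin is a secreted protein that binds both netrin-1 and Dcc and antagonises netrin signaling. In the retina, netrin-1 at the optic disc guides Dcc-bearing RGC axons into the optic nerve.

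The libraries held between 27521982 and 37061718 expected counts, and 15747 genes, all 9 netrin genes among them, passed the filter on low counts. Levels are given as TPM (transcript abundance scaled by gene length and to a fixed total) as deposited, and fold changes come from limma-voom on the expected counts. A gene was called when its adjusted p was under 0.05 and its fold change above 1.2. The level of Sox11, in which transcripts of the virus and of the cell's own gene cannot be separated, was 56.9 and 73.4 TPM with control, 2256 and 3631 TPM with Sox11, and 2889 and 1682 TPM with Sox11K91A, as the labels say. Control replicate 2 and Sox11 replicate 2 were set off along the second principal component (19.5% of the variance) from the 4 remaining libraries. They also had the lowest levels of Xist, the RNA of the inactive X chromosome (30.3 and 56.9 TPM, against 72.9 to 107 TPM in the other 4 libraries). The Y-linked genes Ddx3y, Eif2s3y, Kdm5d and Uty were highest in them, with Ddx3y at 15.1 and 16.4 TPM, against 7.53 to 8.06 TPM in the other 4. The source of these differences was not tested. Of 9 RGC markers tested, Rbpms, Pou4f1, Pou4f2, Isl1 and Sncg passed no test and were at 52.4 TPM or more in every library, whereas Slc17a6, Thy1, Nefl and Nefm were lower with Sox11 and Slc17a6 and Nefm were lower with Sox11K91A. Markers of astrocytes summed to between 2.05 and 5.70 TPM, with Gfap at 0 in every library, those of microglia and macrophages to between 0.97 and 5.14 TPM, those of pericytes and fibroblasts to between 8.46 and 21.1 TPM, and those of bipolar cells and photoreceptors to between 14.4 and 29.7 TPM. Markers of Muller glia and progenitors summed to 93.8 and 79.0 TPM with control and to between 214 and 256 TPM in the transduced libraries, but this rise was that of Glul, glutamine synthetase, which was called higher with both viruses. The other 7 genes of this list were not called, and its median log2 fold change was -0.66 with Sox11 and -0.57 with Sox11K91A. The part of these cells in the levels of the netrin genes was not tested. In such bulk samples, fewer cells of a type and less RNA per cell cannot be told apart.

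With Sox11, 4 of the 9 netrin genes were called against control. Draxin and Ntn4 rose and Ntn1 and Unc5d fell. With Sox11K91A, 3 of the 9 were called, Draxin and Ntn4 rising and Ntn1 falling. Among all genes tested, 20.1% were called with Sox11, 9.96% as higher and 10.2% as lower, and 10.6% were called with Sox11K91A, 5.81% as higher and 4.81% as lower. Both comparisons used the same control libraries and are therefore not independent. The median log2 fold change of the 9 genes was 0.26 with Sox11 and 0.20 with Sox11K91A, beside 0.01 and 0.02 over all genes tested. In both comparisons this median is the value of Neo1, which was not called, and the 9 genes moved in both directions. The Sox11 libraries lay wholly above or below the control libraries in library-size-scaled counts (CPM) for all 9 genes, and the Sox11K91A libraries did so for 8 of the 9, Neo1 being the exception. Such separation was common, since it was seen in 61.5% and 61.9% of all genes tested.

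**Figure D1:**
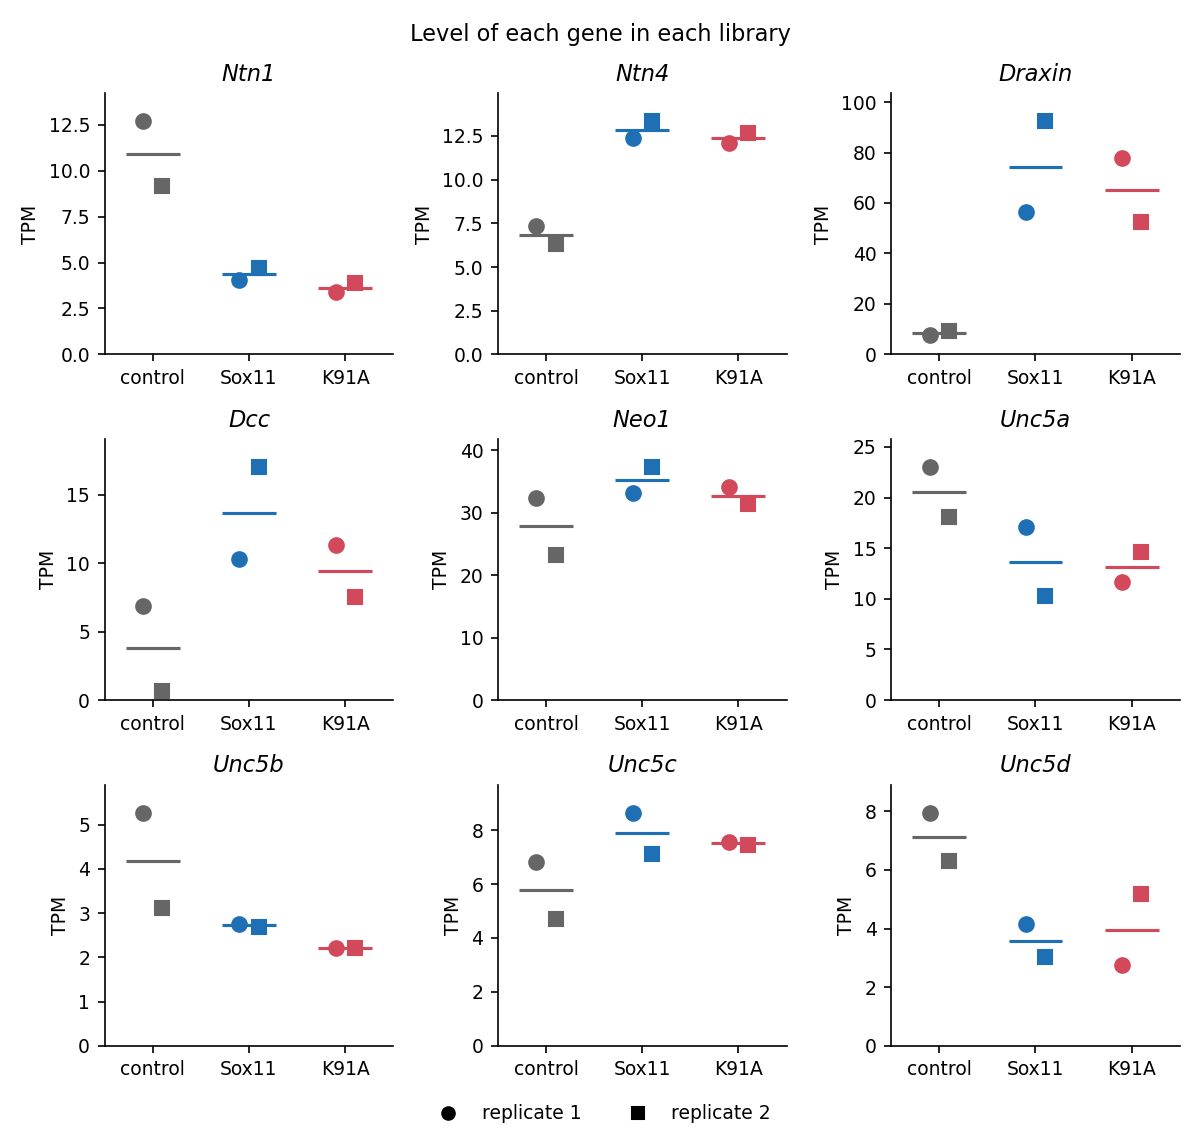
TPM of each netrin gene in each of the 6 libraries, with control in grey, Sox11 in blue and Sox11K91A (K91A) in red. Circles are replicate 1, squares are replicate 2, the lines are group means, and each axis starts at 0. Draxin lay between 52.4 and 92.3 TPM in the 4 transduced libraries and between 7.50 and 9.09 TPM in the control libraries, and the control replicates of Dcc lay far apart at 6.89 and 0.68 TPM.

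The 2 netrin ligands moved in opposite directions. Ntn1, the canonical netrin, was at 12.7 and 9.15 TPM with control, at 4.05 and 4.69 TPM with Sox11, and at 3.39 and 3.86 TPM with Sox11K91A. Neither transduced group overlapped with control. The log2 fold change of Ntn1 was -1.58 with Sox11 (SE 0.20, limma-voom adjusted p = 0.011), a 2.99-fold fall, and -1.72 with Sox11K91A (SE 0.20, adjusted p = 0.014), a 3.29-fold fall. The counts behind these values were 803 and 1019 with control, 228 and 333 with Sox11, and 244 and 270 with Sox11K91A. The abundance-weighted transcript length of Ntn1, an average over its 3 transcripts in the tables, was 4673 and 5399 bases with control and between 4297 and 4866 bases with either Sox11 virus, so that the length by which TPM is scaled differed between the libraries. Ntn1 lies on GRCm38 chromosome 11 between positions 68209364 and 68400823 on the minus strand.

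Ntn4 encodes netrin-4, a netrin of basement membranes that binds laminin. It was at 7.35 and 6.31 TPM with control, at 12.4 and 13.3 TPM with Sox11, and at 12.1 and 12.7 TPM with Sox11K91A, and its replicates were the closest together of all 4 genes called. The log2 fold change was 0.83 with Sox11 (SE 0.17, limma-voom adjusted p = 0.021) and 0.74 with Sox11K91A (SE 0.17, adjusted p = 0.040), which are 1.78-fold and 1.67-fold rises. The ratio of Ntn4 to Ntn1 in TPM was 0.580 and 0.690 with control, 3.06 and 2.84 with Sox11, and 3.57 and 3.28 with Sox11K91A. Ntn4 was thus the lower of both netrins in each control library and the higher in each transduced library, while their summed level was between 15.5 and 20.0 TPM in all 6 libraries, with control at both ends of that range. Adjusted p of Ntn4 missed the threshold in 7 of 20 alternatives with Sox11 and in 11 of 20 with Sox11K91A, with a log2 fold change between 0.68 and 0.91 in all of them. Ntn4 lies on GRCm38 chromosome 10 between positions 93640681 and 93747207 on the plus strand.

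With all 6 libraries in the fit, Draxin had the largest rise of the 9 genes, and without control replicate 1 that of Dcc was larger (log2 fold changes of 4.13 and 3.65, beside 2.83 and 2.70 for Draxin). Draxin was at 7.50 and 9.09 TPM with control, at 56.6 and 92.3 TPM with Sox11, and at 77.9 and 52.4 TPM with Sox11K91A. Neither transduced group overlapped with control, whereas both transduced groups overlapped with each other. The log2 fold change was 3.02 with Sox11 (SE 0.31, limma-voom adjusted p = 0.0091), an 8.09-fold rise, and 2.88 with Sox11K91A (SE 0.31, adjusted p = 0.012), a 7.37-fold rise. Of the 15747 genes tested, 159 had a larger log2 fold change with Sox11, and 186 had a larger one with Sox11K91A. Its share of the summed TPM of the 9 genes was 6.83% and 11.3% with control, 38.0% and 49.2% with Sox11, and 47.8% and 38.1% with Sox11K91A. The ratio of Draxin to Ntn1, its ligand partner, was 0.591 and 0.993 with control, 14.0 and 19.7 with Sox11, and 23.0 and 13.6 with Sox11K91A. Draxin lies on GRCm38 chromosome 4 between positions 148098437 and 148130698 on the minus strand and has 1 annotated transcript of 5200 bases, so that its counts are not split between isoforms.

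Sox11 belongs to the SoxC group of HMG-box transcription factors, which bind short sites with the core ACAAAG or close relatives of it. The planned motifs AACAAAG and AACAATG were in none of the netrin promoters found. The shorter ACAAAG was chosen after the letters of the Draxin promoter had been seen, so its matches there are not a test. With that limit, the promoter of Draxin is shown. The 250 bases before its start, from RefSeq on GRCm38.p6 (chr4:148130699-148130948, minus strand), read 5′ to 3′ as follows, with CTTTGT, the reverse complement of ACAAAG, in capitals.
Draxin: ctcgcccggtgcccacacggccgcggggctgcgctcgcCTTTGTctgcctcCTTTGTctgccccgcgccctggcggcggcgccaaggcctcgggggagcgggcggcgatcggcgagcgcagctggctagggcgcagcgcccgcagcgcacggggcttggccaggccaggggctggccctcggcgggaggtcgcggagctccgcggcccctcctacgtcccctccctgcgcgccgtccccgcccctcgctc
Counted from the start, with bases before it negative, the capitals begin at -212 and -199. Promoters of 300 bases, with 50 bases after the start included, were found for 6 of the 9 genes, and the letters were searched on both strands. ACAAAG was absent from the promoters of Neo1, Ntn4, Unc5a, Unc5b and Unc5c. It was searched after the letters of the Draxin promoter had been seen. ACAATG, which is AACAATG shortened in the same way, was not searched. It does occur in the 250 bases before the start of Ntn4, so a short core of this kind was not particular to Draxin. Among 32851 promoters of the same length, 18.7% held ACAAAG or CTTTGT at least 1 time and 2.37% held it at least 2 times. The longer motif AACAAAG, which contains ACAAAG, was in 5.85% of all promoters, AACAATG was in 3.78%, and both were in 0 of the 6. The promoter of Draxin was 78% G and C, beside a median of 52.7% over all promoters. A match of letters is a description of the window and says nothing of binding, which was not measured.

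Among the receptors, Dcc had the largest differences and the least certain ones. It was at 6.89 and 0.68 TPM with control (488 and 73 counts), at 10.3 and 17.0 TPM with Sox11 (709 and 1400 counts), and at 11.3 and 7.55 TPM with Sox11K91A (931 and 567 counts). Every transduced library was above both control libraries, but control replicate 2 held far less Dcc than control replicate 1. The log2 fold change was 2.70 with Sox11 (SE 0.80, limma-voom adjusted p = 0.055) and 2.22 with Sox11K91A (SE 0.81, adjusted p = 0.12), neither of which was called. Without control replicate 2 these were 0.93 (adjusted p = 0.16) and 0.45 (adjusted p = 0.52), and without control replicate 1 they were 4.13 (adjusted p = 0.025) and 3.65 (adjusted p = 0.040). Dcc therefore depended on which control library was used.

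The control replicates differed by 3.19 log2 CPM in Dcc, and only 140 of the 15747 genes tested differed by at least as much, the median being 0.344. Markers of amacrine and horizontal cells, the interneurons of the inner and outer retina, were also low in control replicate 2. Their summed level over 10 genes was 137 and 45.9 TPM with control, 85.5 and 55.0 TPM with Sox11, and 87.4 and 76.2 TPM with Sox11K91A. Gad1, which makes GABA, was at 25.5 and 1.83 TPM with control, and Slc32a1, which loads it into vesicles, was at 11.2 and 0.84 TPM. Genes of this list differed in the Sox11 libraries, where Dcc was higher in replicate 2. Gad1 was at 12.1 and 1.58 TPM there. Tfap2a, Tfap2b, Gad2, Slc32a1 and Lhx1 were also lower in Sox11 replicate 2, with Gad2 at 22.0 and 7.51 TPM. In contrast, Onecut1 was at 14.3 and 18.7 TPM, Prox1 at 8.61 and 9.98 TPM and Slc6a9 at 8.09 and 10.6 TPM. Onecut1 (10.8 and 3.08 TPM with control) and Prox1 (2.11 and 0.77 TPM) were also lower in control replicate 2. Prox1 was called higher with both viruses (limma-voom adjusted p = 0.013 and 0.021). Slc6a9 was called lower with both, with log2 fold changes of -2.14 and -1.75 (limma-voom adjusted p = 0.018 and 0.034). The part of other cell types in the level of Dcc was not tested.

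Neo1 was the most abundant receptor of the family in every group. Its level was 32.4 and 23.3 TPM with control, 33.1 and 37.3 TPM with Sox11, and 34.1 and 31.4 TPM with Sox11K91A. The groups lay close together, and Sox11K91A overlapped with control. The log2 fold change was 0.26 with Sox11 (95% interval -0.12 to 0.64, limma-voom adjusted p = 0.28) and 0.20 with Sox11K91A (95% interval -0.18 to 0.58, adjusted p = 0.46). The ratio of Dcc to Neo1 was 0.213 and 0.0292 with control, 0.310 and 0.456 with Sox11, and 0.332 and 0.240 with Sox11K91A, so that Neo1 exceeded Dcc in all 6 libraries.

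Among the Unc5 receptors, 1 of 4 was called. Unc5d, which also binds the adhesion protein Flrt2, was at 7.95 and 6.30 TPM with control, at 4.15 and 3.02 TPM with Sox11, and at 2.76 and 5.17 TPM with Sox11K91A. All transduced libraries were below control, and the Sox11K91A libraries were far apart from each other. Its log2 fold change was -1.10 with Sox11 (SE 0.30, limma-voom adjusted p = 0.046) and -0.97 with Sox11K91A (SE 0.30, adjusted p = 0.081). The first of these lay close to the threshold and missed it in 11 of 20 alternatives, among them edgeR (adjusted p = 0.063) and leaving out either control library (adjusted p = 0.094 and 0.083). Whether the effects of the viruses on Unc5d differed is addressed by their direct comparison, which did not call it.

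Unc5a, the most abundant Unc5 receptor in all 6 libraries, was at 23.0 and 18.1 TPM with control, at 17.1 and 10.3 TPM with Sox11, and at 11.6 and 14.7 TPM with Sox11K91A. Both transduced groups were below control, with log2 fold changes of -0.74 (SE 0.25, limma-voom adjusted p = 0.076) and -0.69 (SE 0.25, adjusted p = 0.12). Unc5b, best known from the tip cells of growing vessels, was at 5.27 and 3.11 TPM with control, at 2.76 and 2.69 TPM with Sox11, and at 2.22 TPM in both libraries with Sox11K91A. Here the spread between the control libraries was wider than the gap to the transduced ones, and the log2 fold changes of -0.63 (SE 0.27, adjusted p = 0.13) and -0.89 (SE 0.27, adjusted p = 0.082) were not called. Endothelial markers summed to between 1.92 and 5.14 TPM over 7 genes in all libraries. Of these, Pecam1 and Tek were called higher with Sox11K91A, at log2 fold changes of 2.03 and 3.14 (limma-voom adjusted p = 0.047 and 0.030). Both were at 1.57 TPM or less in every library. Kdr and Vwf, also tested, were not called, and none of this list was called with Sox11. Unc5c was at 6.82 and 4.71 TPM with control, at 8.64 and 7.12 TPM with Sox11, and at 7.57 and 7.44 TPM with Sox11K91A. It was the only Unc5 receptor whose transduced libraries were above control, and its log2 fold change of 0.37 in both comparisons was not called (limma-voom adjusted p = 0.19 and 0.23).

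By role, the summed level of the 4 Unc5 receptors was 43.0 and 32.2 TPM with control, 32.6 and 23.1 TPM with Sox11, and 24.2 and 29.5 TPM with Sox11K91A. That of Dcc and Neo1 was 39.3 and 24.0 TPM with control, 43.4 and 54.4 TPM with Sox11, and 45.4 and 39.0 TPM with Sox11K91A. Control overlapped with Sox11 in the first sum and with Sox11K91A in the second. The Unc5 sum was the larger of both in each control library, and the sum of Dcc and Neo1 was the larger in each transduced library.

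The order of the mean levels in TPM differed between control and both transduced groups. With control it was Neo1, Unc5a, Ntn1, Draxin, Unc5d, Ntn4, Unc5c, Unc5b and Dcc from high to low, and from Draxin downwards neighbours in this order overlapped between replicates. With Sox11 it was Draxin, Neo1, Unc5a, Dcc, Ntn4, Unc5c, Ntn1, Unc5d and Unc5b, where the replicates of Unc5a overlapped with those of Dcc, those of Dcc with those of Ntn4, and those of Ntn1 with those of Unc5d. With Sox11K91A it was Draxin, Neo1, Unc5a, Ntn4, Dcc, Unc5c, Unc5d, Ntn1 and Unc5b, where Unc5a and Ntn4, Dcc and Unc5c, and Unc5d and Ntn1 overlapped. Draxin moved from the fourth place to the first in both, and Ntn1 from the third to the seventh or eighth.

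**Figure D2:**
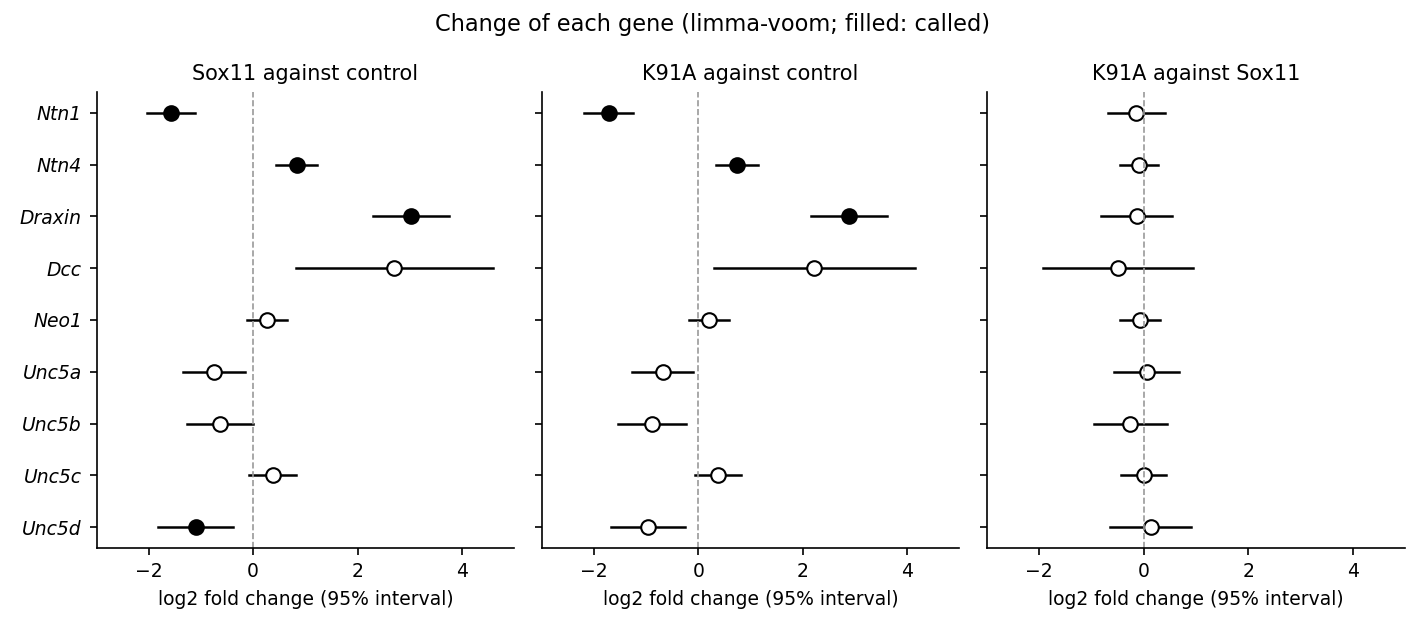
Log2 fold change of each netrin gene from limma-voom in the 3 comparisons, with bars for the 95% interval and filled circles for genes that were called. Draxin, Ntn1 and Ntn4 were called against control with either virus, Unc5d was called with Sox11 alone, and no gene was called between Sox11K91A and Sox11.

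The direct comparison of Sox11K91A with Sox11 asked whether the mutation changed the effect of Sox11 on these genes. It called 0 of the 9, and 0% of all genes tested. Over all genes, 108 had an unadjusted p under 0.05 in limma-voom, 0 were called by edgeR and 2 by DESeq2, and none of the 9 was called by any of them. The limma-voom adjusted p was 1.00 for each of the 9 genes. Log2 fold changes lay between -0.48 for Dcc and 0.13 for Unc5d. The 95% interval was -0.81 to 0.54 for Draxin, -0.68 to 0.40 for Ntn1, -0.46 to 0.27 for Ntn4, and -1.92 to 0.95 for Dcc. These intervals are for single genes and are not adjusted for the number of genes tested, so they do not bound what could have been called. With 2 replicates, differences larger than those observed could also have gone uncalled. Unc5b was the only gene of the 9 whose groups did not overlap, which was seen in 26.6% of all genes tested.

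Levels of 3 of the 9 genes followed the level of Sox11 among the 4 transduced libraries. Sox11 was highest in Sox11 replicate 2, followed by Sox11K91A replicate 1, Sox11 replicate 1 and Sox11K91A replicate 2. Draxin, Dcc and Neo1 had the same order, which 12.4% of all other genes tested also had, and 0 of the 9 genes had the reverse order, which 13.9% had. This order was looked for after the values had been seen. The summed level of the RGC markers had the reverse order, at 4398, 5997, 7302 and 7540 TPM in the same libraries, a sum held mostly by Nefl, Nefm, Sncg and Thy1. Other RGC markers did not have that order, and Pou4f2 was highest, at 80.3 TPM, in Sox11 replicate 2. The parts of Sox11 and of these markers in the levels of the netrin genes were not tested.

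**Figure D3:**
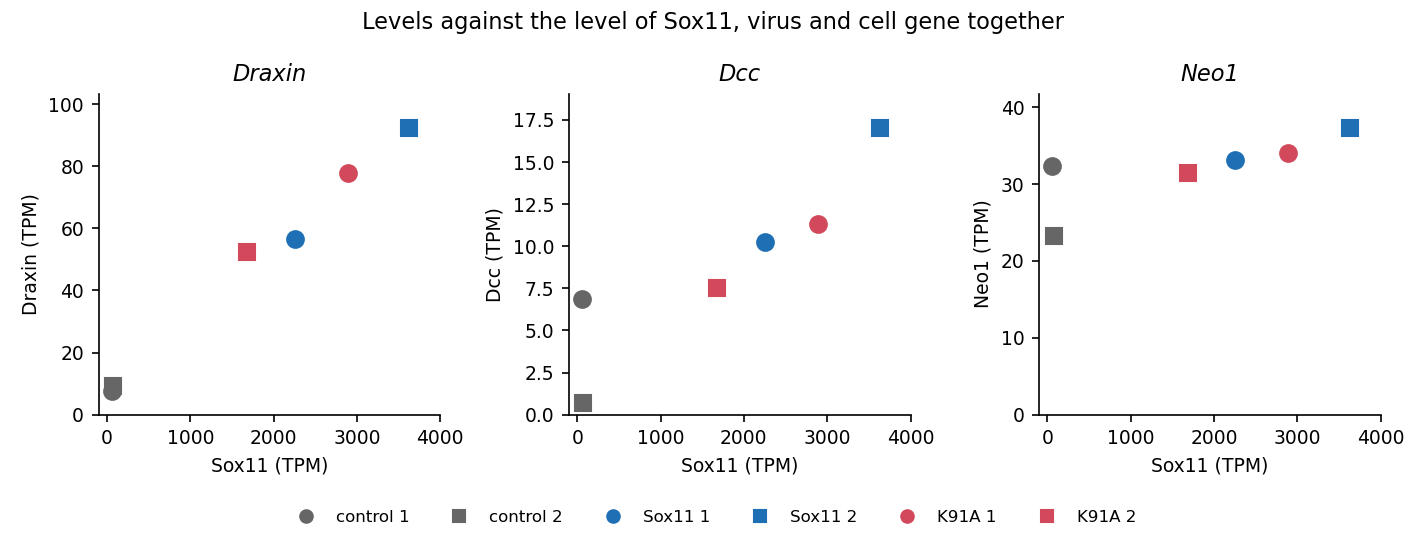
TPM of Draxin, Dcc and Neo1 against TPM of Sox11 in the 6 libraries, on linear axes, with circles for replicate 1 and squares for replicate 2. Among the 4 transduced libraries (blue and red) all 3 genes had the same order as Sox11, with Draxin between 52.4 and 92.3 TPM.

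Calls depended on single libraries. For Draxin, Ntn1 and Ntn4 the log2 fold changes against control kept to between 2.61 and 3.35, between -1.86 and -1.47 and between 0.68 and 0.87 with each library left out in turn, whereas Unc5a with Sox11 moved from -0.74 to -0.36 without Sox11 replicate 2, Unc5b with Sox11 from -0.63 to -0.35 without control replicate 1, and Unc5d with Sox11K91A from -0.97 to -0.49 without Sox11K91A replicate 1. Without Sox11 replicate 2, no gene of the 9 was called with Sox11 and 0 of all genes tested were called, with 3347 at an unadjusted p under 0.05, although Draxin still had a log2 fold change of 2.68 (limma-voom adjusted p = 0.057) and Ntn1 one of -1.72 (adjusted p = 0.075). Without control replicate 2, no gene of the 9 and 0 of all genes were called with Sox11K91A, with 4753 at an unadjusted p under 0.05, and Draxin had a log2 fold change of 3.11 (adjusted p = 0.057). Without Sox11K91A replicate 1, no gene of the 9 and 19 of all genes were called with Sox11K91A, and Draxin had a log2 fold change of 2.61 (adjusted p = 0.052). With both libraries that stood apart left out, 3 of the 9 genes were called with Sox11 and 5 with Sox11K91A, where 13.1% and 25.8% of all genes tested were called. In these fits a lone library of a group is assumed to vary like the other groups.

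**Figure D4:**
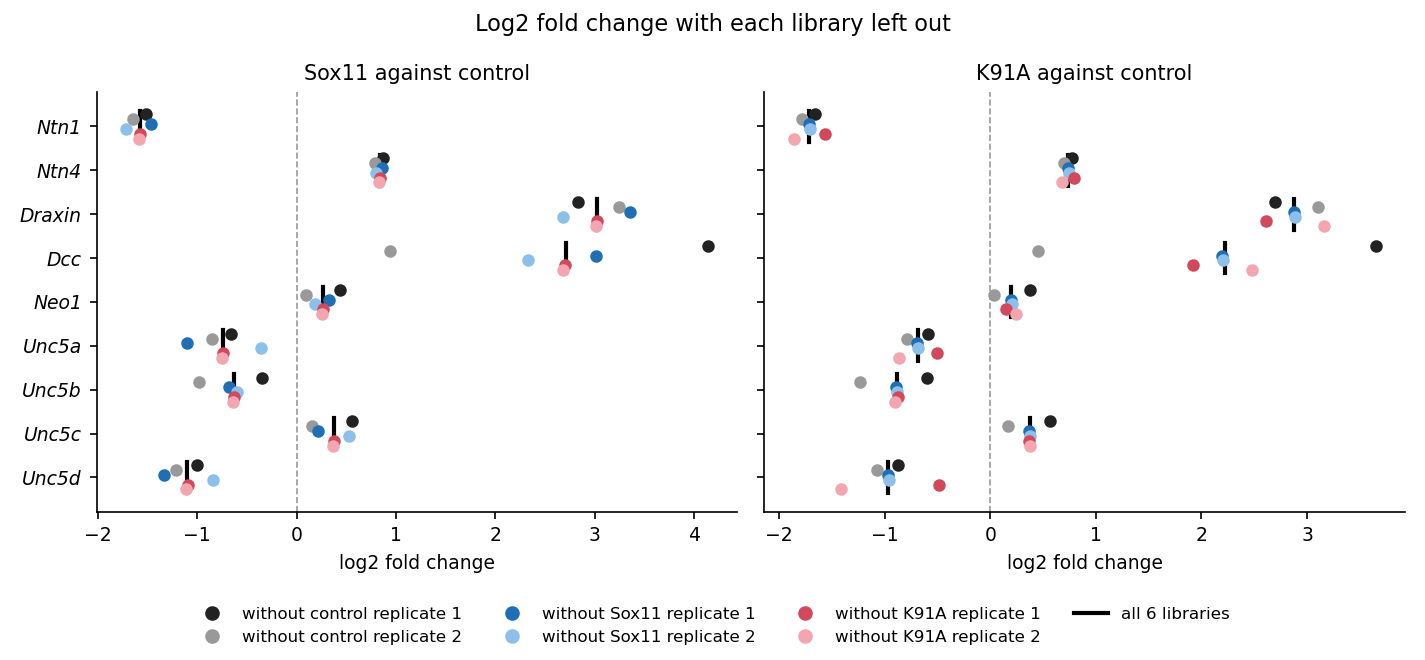
Log2 fold change of each netrin gene against control with all 6 libraries (black lines) and with each library left out in turn (coloured points). Draxin stayed between 2.61 and 3.35 and Ntn1 between -1.86 and -1.47 over both panels, whereas Dcc ranged from 0.45 to 4.13 depending on the control library left out.

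Other ligands and receptors of the pathway were counted from a list of 19 genes, of which 16 were tested. Ntn3 was not analysed here, and Ntn5 and Adora2b were filtered out at 0.49 TPM or less in every library. With Sox11, 1 was higher and 3 were lower. With Sox11K91A, 1 was higher and 1 was lower. Of all genes tested, 9.96% were higher and 10.2% lower with Sox11, and 5.81% were higher and 4.81% lower with Sox11K91A. The list medians of the log2 fold change were -0.29 and -0.11, beside 0.01 and 0.02 over all genes tested. Lrrc4, a synaptic adhesion protein that binds netrin-G2, was higher with both viruses, with log2 fold changes of 0.85 and 0.76 (limma-voom adjusted p = 0.026 and 0.047). Mcam, a cell adhesion molecule described as a netrin-1 receptor, fell from 71.6 and 34.0 TPM with control to 9.84 and 2.57 TPM with Sox11 and to 6.12 and 9.97 TPM with Sox11K91A, with log2 fold changes of -3.48 and -2.72 (adjusted p = 0.016 and 0.028). Flrt1 and Flrt2, adhesion proteins of which Flrt2 binds Unc5d, were lower with Sox11, with log2 fold changes of -1.31 (adjusted p = 0.025) and -0.79 (adjusted p = 0.050, just under the threshold). The counts of this list also changed without both libraries that stood apart. Rgmb, a repulsive guidance molecule that binds neogenin, was at 86.4 and 51.0 TPM with control and between 91.3 and 137 TPM in the transduced libraries, and its log2 fold change of 0.80 with Sox11 was not called (adjusted p = 0.054).

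Proteins that act inside the cell below these receptors were counted from a list of 29 genes, all of which were tested. With Sox11, 9 were higher and 2 were lower, beside 9.96% and 10.2% of all genes tested. With Sox11K91A, 5 were higher and 0 were lower by limma-voom, beside 5.81% and 4.81% of all genes. At an unadjusted limma-voom p under 0.05, 13 were higher and 4 lower with Sox11K91A, beside 2445 and 2372 of all 15747 genes. As lower with Sox11K91A, edgeR called 0 (3.63% of all genes) and DESeq2 called 3 (10.1% of all genes). The list medians of the log2 fold change were 0.31 and 0.20, beside 0.01 and 0.02 over all genes tested. Nck2, Pak1, Dapk1, Myo10 and Plcg1 were higher with both viruses, and Ptk2, Evl, Siah1a and Lrig2 were called with Sox11 alone, a difference that the direct comparison did not call. Myo10, an unconventional myosin of filopodia that carries Dcc, rose from 3.23 and 1.78 TPM with control to 6.33 and 6.99 TPM with Sox11 and to 8.30 and 4.96 TPM with Sox11K91A (log2 fold changes 1.90 and 1.76, limma-voom adjusted p = 0.020 and 0.033). Pak1, the kinase that Rac1 and Cdc42 activate, rose from 105 and 133 TPM to 240 and 340 TPM with Sox11 and to 270 and 235 TPM with Sox11K91A, with log2 fold changes of 1.18 and 1.04 (adjusted p = 0.020 and 0.037). Dapk1, a death-associated kinase that binds Unc5b, had log2 fold changes of 1.15 and 1.02 (adjusted p = 0.013 and 0.023). Vasp, an actin regulator of growth cones, and Trim9, a ubiquitin ligase that binds Dcc, were lower with Sox11, with log2 fold changes of -0.65 and -0.73 (adjusted p = 0.032 and 0.049). Without both libraries that stood apart, 6 were higher and 1 lower with Sox11, and 9 were higher and 4 lower with Sox11K91A, where 6.10% of all genes were higher and 7.05% lower with Sox11 and 11.4% higher and 14.4% lower with Sox11K91A. None of either list was called between Sox11K91A and Sox11.

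**Figure D5:**
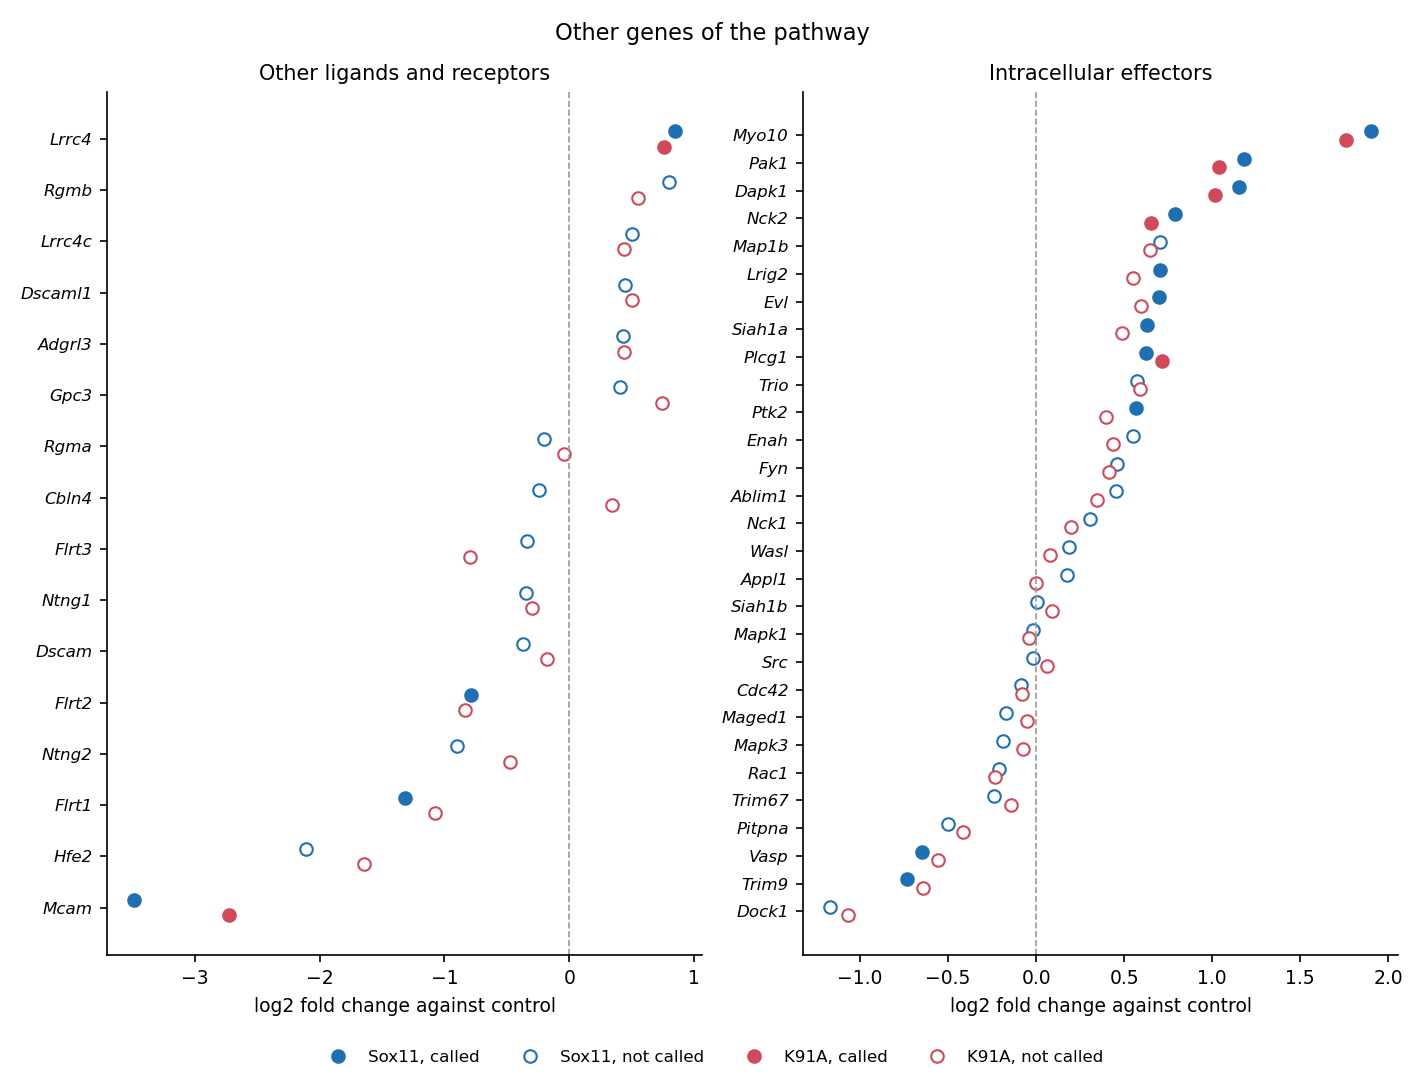
Log2 fold change against control of the other ligands and receptors (left, 16 genes tested) and of the intracellular effectors (right, 29 genes), in blue for Sox11 and in red for Sox11K91A, with filled circles for called genes and Hfe2 for the gene now named Hjv. Mcam had the largest fall, at -3.48 and -2.72, and Myo10 the largest rise, at 1.90 and 1.76.

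For each netrin gene that was called, the genes with the most similar profile over the 6 libraries were found among 13745 genes with a mean of at least 1 TPM, by the root mean square distance of centred log2 CPM. They were 1110032F04Rik and C1ql3 for Ntn1 (distances 0.0878 and 0.119, beside a median of 0.837 over all genes ranked), Mapk8 and Lbh for Ntn4 (0.0494 and 0.0562, median 0.447), and Slc22a21 and Slc16a6 for Unc5d (0.0623 and 0.111, median 0.634). Gpc2 and Mycl were nearest to Draxin (0.118 and 0.141, median 1.44), with log2 fold changes of 2.99 and 3.28 with Sox11 and of 2.80 and 3.09 with Sox11K91A. These are descriptions over 6 libraries that share 2 controls.

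The remaining receptor genes lie at the following positions of GRCm38. Neo1 lies on chromosome 9 between 58874687 and 59036441 (minus strand), Unc5a on chromosome 13 between 54949411 and 55006018 (plus strand), Unc5b on chromosome 10 between 60762593 and 60831581 (minus strand), Unc5c on chromosome 3 between 141465216 and 141834924 (plus strand), Unc5d on chromosome 8 between 28646717 and 29219636 (minus strand), and Dcc on chromosome 18 between 71253634 and 72351069 (minus strand). Exons of Unc5a share 34 bases with Hk3 on the opposite strand and exons of Unc5c share 118 bases with the antisense gene Gm15688, which is 0.816% and 0.617% of their exonic bases. Whether the counting used strand is not given in the sources used here, so reads from these stretches cannot be assigned. The longest transcript of each of the 9 genes was also searched against all other genes. No stretch other than that of Unc5c matched at 95% identity or more. The 34 bases of Unc5a were not found by this search, so other short matches could have been missed.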

How the data were processed

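RNA-seq libraries of control, Sox11 and Sox11K91A RGCs (2 each) were analysed from 6 tables of genes. Reads had been aligned to mm10 with STAR and counted with RSEM, and limma is also named in the submitters' processing notes. Versions, annotation and strand are not given in the sources used here. The authors deposited RSEM expected counts, which are not normalized, together with TPM, in which RSEM corrects for gene length and library total, and the transcript length behind them. The deposited TPM interval bounds were not used.

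Expected counts were rounded, filtered with filterByExpr of edgeR (version 4.0.16) over the 3 groups, scaled with TMM, and fitted by limma-voom in a single model of the 6 libraries without covariates (R 4.3.3, limma 3.58.1). Adjusted p-values are two-sided, use Benjamini-Hochberg adjustment over all 15747 genes tested, and are those of limma-voom except where a sentence says otherwise. The fit was also run on simulated data, the outcome of which is not reported here. The simulated libraries varied independently, so libraries that stand apart together were not simulated. CPM used TMM-scaled library sizes. Alternatives were DESeq2 (version 1.42.0), the quasi-likelihood test of edgeR, weights for sample quality, limma-trend on log2(TPM + 1) and log2(TPM + 0.1), other scalings and filters, unrounded counts, only the groups compared, a block for replicate number or for the libraries that stood apart, and each library left out. The fit without both libraries that stood apart, the counts of the 2 pathway lists under alternatives, the motif ACAAAG and the order by Sox11 were added after seeing the data. The netrin genes, the lists and the markers were chosen with earlier results of these data known. The 29 intracellular proteins leave out 1 gene of the planned list, which is not reported here. All 9 netrin genes are named, other genes of the 2 lists where called or among those with the largest change, and for each called netrin gene the 2 nearest profiles. Rgmb and the markers Gad1, Gad2, Slc32a1, Slc6a9, Tfap2a, Tfap2b, Lhx1, Onecut1, Prox1, Pou4f2, Glul, Pecam1 and Tek were named after their values were seen. Positions came from GENCODE M21 on GRCm38 and matches between transcripts from BLAST+ (version 2.17.0). Intervals of fold changes cover the spread between libraries.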

Additional observations from a re-analysis of the deposited data

How the results depend on the processing

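Over 20 alternatives, no direction of the 9 netrin genes against control changed with either virus. Past the threshold with Sox11 were Draxin and Ntn1 in 19, Ntn4 in 13 and Unc5d in 9 of the 20, and with Sox11K91A Draxin and Ntn1 in 18 and Ntn4 in 9. Sample quality weights left 2 genes called with Sox11 (979 of all genes, beside 3171). The block for control replicate 2 and Sox11 replicate 2 gave 5 with Sox11K91A, as did leaving out both (2894 and 4108 of all genes, beside 1672). Leaving out libraries gave between 0 and 4 calls with Sox11 and between 0 and 5 with Sox11K91A. The cause was not tested.

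Between Sox11K91A and Sox11, where nothing was called, signs turned. Leaving out libraries gave log2 fold changes of -0.28 to 0.013 for Ntn1, -0.13 to 0.015 for Neo1, -0.32 to 0.41 for Unc5a, -0.15 to 0.15 for Unc5c, -0.31 to 0.61 for Unc5d and -0.47 to 0.21 for Draxin. The block for both libraries that stood apart gave -0.18 for Unc5a, -0.17 for Unc5c, -0.037 for Unc5d and 0.15 for Draxin. With limma-trend on log2(TPM + 1) and log2(TPM + 0.1), Unc5a was at -0.0205 and -0.0196 and Unc5c at -0.0570 and -0.0629. Unc5c was at -0.0104 with edgeR, -0.0103 with DESeq2 and -0.0023 with library size alone.

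The labels do not say whether replicate numbers pair the samples. Same-numbered deviations correlated at 0.23 between control and Sox11, -0.03 between control and Sox11K91A, and -0.23 between Sox11 and Sox11K91A. With 2 libraries per group these values cannot settle pairing. Control replicate 2 and Sox11 replicate 2 stood apart together, and whether they share an origin was not tested. The replicate block called 3 of the 9 genes with Sox11, losing Unc5d (adjusted p = 0.056), and 2 with Sox11K91A, losing Ntn4 (adjusted p = 0.062), and gave -0.0083 for Unc5c between Sox11K91A and Sox11.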
